A study of Mus musculus with 6 samples.

Results

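The genes described are 9 of the 55487 Ensembl mouse genes in the files. They encode the chains of the receptors for the cytokines IL4 and IL13 (Il4ra, Il13ra1 and Il2rg), the transcription factor Stat6, and 5 genes used as markers of alternative activation (Mrc1, F13a1, Tgm2, Tgfbi and Arg1). They were picked by name, with their levels in these libraries already known, so their differences between the groups are given as a description and no p-value is given for them. Where a gene is said to have passed the study's thresholds, that describes the fit to all genes and is no independent support. All 9 had a mean of at least 0.5 TPM and were part of the fit to 13829 genes. The unit of the levels, TPM, is a read count divided by gene length and scaled to the same total in every library, so that levels of different genes can be set side by side.

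The libraries came from J774, a mouse macrophage cell line, transfected with control siRNA or with NCOA4 siRNA, with 3 biological replicates of each. A small interfering RNA (siRNA) directs the breakdown of a matching transcript, and NCOA4 is the cargo receptor that delivers ferritin, the iron storage protein, to the lysosome. A single negative control and a single NCOA4-specific siRNA were used in this cell line, in growth medium with serum, and no addition of IL4 or IL13 is named in the labels. The comparison asks how the transcriptome of the macrophages changed when NCOA4 was depleted.

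IL4 and IL13 are cytokines of the response to parasites and of allergy. IL4 binds the α chain encoded by Il4ra, which pairs with the common γ chain (Il2rg) in the type I receptor or with Il13ra1 in the type II receptor. IL13 binds the type II receptor. Kinases of the JAK family attached to the chains then phosphorylate STAT6, which enters the nucleus and induces the genes of alternative activation, a state of macrophages associated with tissue repair.

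Reads on genes numbered between 15740333 and 18565408 per library. Ncoa4, the target of the siRNA, was at 21.6 ± 1.57 TPM in the control libraries and 9.04 ± 0.533 TPM after its knockdown (SD, n = 3 each), which left 41.9% of its RNA (log2 difference -1.21, standard error 0.0767, adjusted p = 0.00127, limma with Benjamini-Hochberg adjustment). Control replicate 1 stood apart from the other two control libraries, with a chi-square per gene of 11.0 and 10.9 against them, where the values between replicates 2 and 3 of control siRNA and within NCOA4 siRNA were 3.44 and 1.90 to 2.30. All 8 genes of a list of macrophage markers were expressed, while 18 of 30 markers of 8 other cell types had no read in any library and 28 of them had a mean under 0.5 TPM. In bulk samples fewer cells of a type and less RNA per cell cannot be told apart.

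Of the 9 genes, 8 had a higher mean with NCOA4 siRNA and 1 had a lower mean, where 57.4% of all tested genes were higher. The matrix and crosslinking genes Tgfbi and Tgm2 had the largest differences, 3.59-fold and 2.73-fold, followed by the mannose receptor Mrc1 (1.82-fold), the crosslinking enzyme F13a1 (1.71-fold) and the receptor chain Il4ra (1.66-fold). The partner chains Il13ra1 and Il2rg were 1.24-fold and 1.22-fold higher, Arg1 was 1.11-fold higher, and Stat6 was at 0.969 of its control level. Il4ra, Mrc1, F13a1, Tgm2 and Tgfbi passed the study's thresholds (fold change over 1.5 and adjusted p under 0.05), that is, 5 of 9, all higher, where 1.18% of all tested genes did so (0.861% higher and 0.318% lower). With Il13ra1, 6 of 9 passed the threshold on the adjusted p alone, which 5.42% of all tested genes passed (3.11% higher and 2.31% lower). The groups of libraries did not overlap for the same 6 genes, against 28.4% of all tested genes (16.6% higher and 11.8% lower). Nothing is read from these counts, since the genes were chosen with the values known. The median log2 difference of the 9 genes was 0.71, and that of all tested genes was 0.03.

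**Figure D1:**
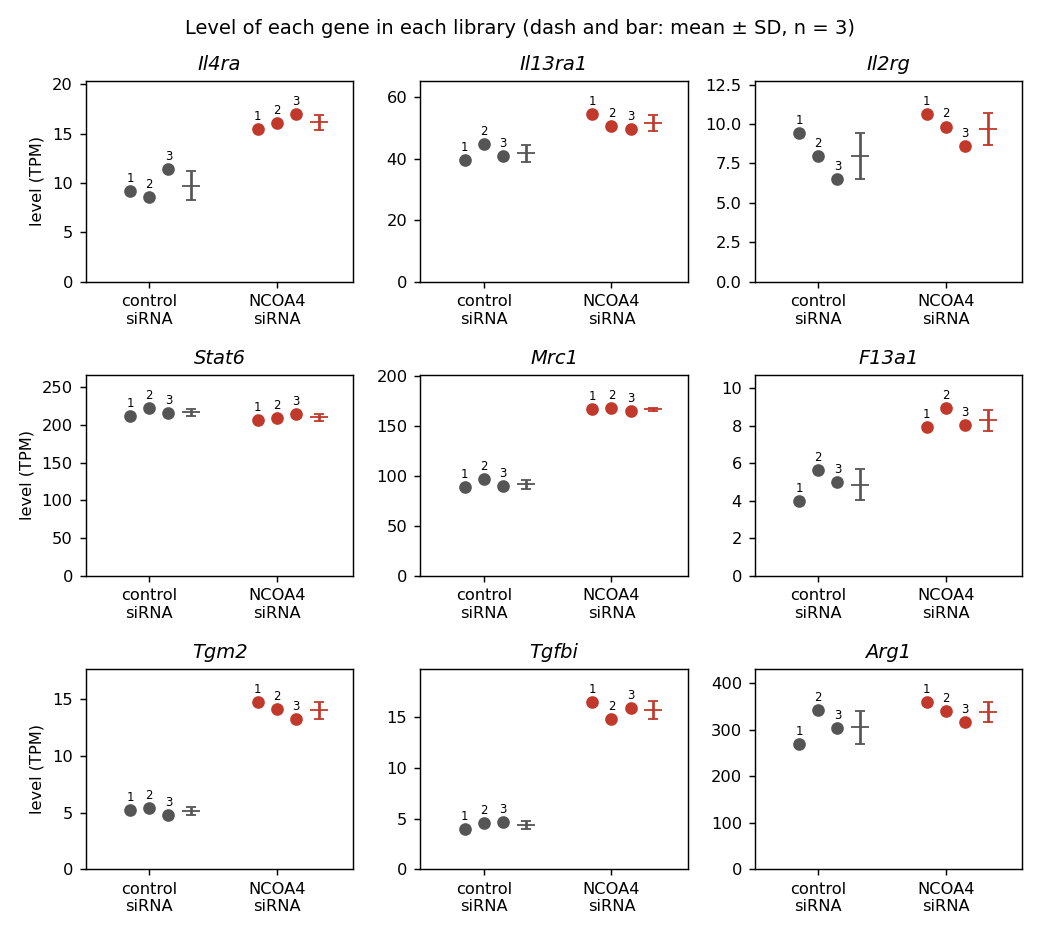
Level of each of the 9 genes in every library, in TPM on an axis that starts at 0, with control siRNA in grey and NCOA4 siRNA in red. Points are single libraries numbered by replicate and the dash with a bar is the mean ± SD (n = 3). All NCOA4 siRNA points lie above all control points for Il4ra, Il13ra1, Mrc1, F13a1, Tgm2 and Tgfbi, while the points overlap for Il2rg, Stat6 and Arg1.

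**Figure D2:**
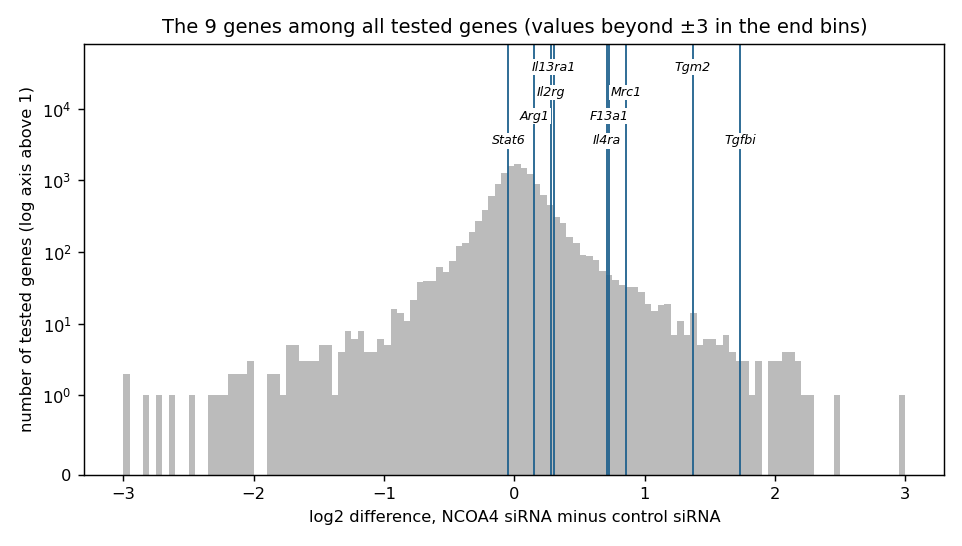
Number of tested genes (log axis above 1) against the log2 difference between NCOA4 siRNA and control siRNA for all 13829 tested genes, with a blue line at each of the 9 genes. Tgfbi at 1.73 and Tgm2 at 1.37 lie in the right tail, and Stat6 at -0.05 lies near the peak.

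Il4ra (ENSMUSG00000030748, chromosome 7, 125552120 to 125579474, plus strand, GRCm38) encodes the chain shared by both receptor types. Its level was 9.17, 8.63 and 11.4 TPM in control replicates 1 to 3 and 15.5, 16.1 and 17.0 TPM in the corresponding NCOA4 siRNA libraries. The reads behind them numbered 316, 314 and 357 with control siRNA and 540, 525 and 614 with NCOA4 siRNA. Every NCOA4 siRNA library was above the highest control library, and control replicate 3 was the highest of the controls. The mean of the controls was 9.74 ± 1.47 TPM and that of the NCOA4 siRNA libraries 16.2 ± 0.737 TPM (SD, n = 3 each), a log2 difference of 0.71 with a standard error of 0.107. The difference was between 0.63 without control replicate 2 and 0.83 without control replicate 3. Il4ra no longer passed the thresholds without NCOA4 siRNA replicate 1, 2 or 3, where its log2 difference was 0.74, 0.72 and 0.68.

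The start of the Il4ra promoter is shown because this chain is the one whose level differed most among the receptor chains. The 250 bases before its RefSeq start site (GRCm38.p6, plus strand, chr7:125552021-125552270) hold 1 match to GGGCGG, the core of a GC box, at position -76 from the start site, written in capitals. The gene as placed above begins earlier, at 125552120, so this match lies inside it. For Mrc1 and Tgfbi below, the RefSeq start sites also lie inside the gene, with the marked bases ahead of the gene start.
Il4ra: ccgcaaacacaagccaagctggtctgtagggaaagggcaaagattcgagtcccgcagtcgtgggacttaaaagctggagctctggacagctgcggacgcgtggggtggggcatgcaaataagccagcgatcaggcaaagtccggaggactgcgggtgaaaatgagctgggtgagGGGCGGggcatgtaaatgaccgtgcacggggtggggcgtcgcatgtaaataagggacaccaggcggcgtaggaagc
GGGCGG, searched on both strands, occurs in the same stretch of 32.7% of all 32851 RefSeq start sites. It occurs before 4 of the 8 start sites of the 7 genes with a promoter entry (Il13ra1, Il4ra, Mrc1 and Tgfbi). The motif was chosen after the values were seen, so nothing is read from this share.

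Il13ra1 (ENSMUSG00000017057, chromosome X, 36112110 to 36171259, plus strand) encodes the chain that joins Il4ra in the type II receptor. Its level was 39.6, 44.8 and 41.0 TPM with control siRNA and 54.5, 50.8 and 49.7 TPM with NCOA4 siRNA, from 793 to 1009 and from 1027 to 1174 reads per library. The groups did not overlap, although the distance between them was smaller than for Il4ra, with a log2 difference of 0.30 (standard error 0.0619). Il13ra1 still passed the threshold on the adjusted p without control replicate 2, and missed it with any other single library left out. Il2rg (ENSMUSG00000031304, chromosome X, 101264378 to 101268255, minus strand) encodes the common γ chain, which also serves the receptors for IL2, IL7, IL9, IL15 and IL21. Its level was 9.41, 7.95 and 6.51 TPM with control siRNA and 10.6, 9.84 and 8.61 TPM with NCOA4 siRNA. The groups overlapped, since control replicate 1 was above NCOA4 siRNA replicate 3, and the log2 difference was 0.28 with a standard error of 0.141. With 81 to 147 reads per library, Il2rg had the highest spread between control libraries of the 9 genes (coefficient of variation 18.2%, where counting alone gives 9.61%). The whole span of Il2rg (100%) lies within Gm20489, another gene on the same strand, which was at a mean of 0 TPM. How reads on both genes were counted is not given, and the part of this overlap in the Il2rg level was not tested.

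Within a library, the level of Il13ra1 was 4.32, 5.20 and 3.59 times that of Il4ra with control siRNA. With NCOA4 siRNA the ratio was 3.52, 3.16 and 2.93, below the control libraries in every case but close to control replicate 3. The mean ratio was 4.37 ± 0.803 and 3.20 ± 0.293 (SD, n = 3 each). The ratio of Il2rg to Il4ra was 1.03, 0.921 and 0.571 with control siRNA and 0.684, 0.613 and 0.508 with NCOA4 siRNA, and here the groups overlapped. As counted, Il13ra1 was thus the most abundant of the 3 chains in all 6 libraries, and Il2rg was below Il4ra in 5 of them. The place of Il2rg is subject to its overlap with Gm20489.

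**Figure D3:**
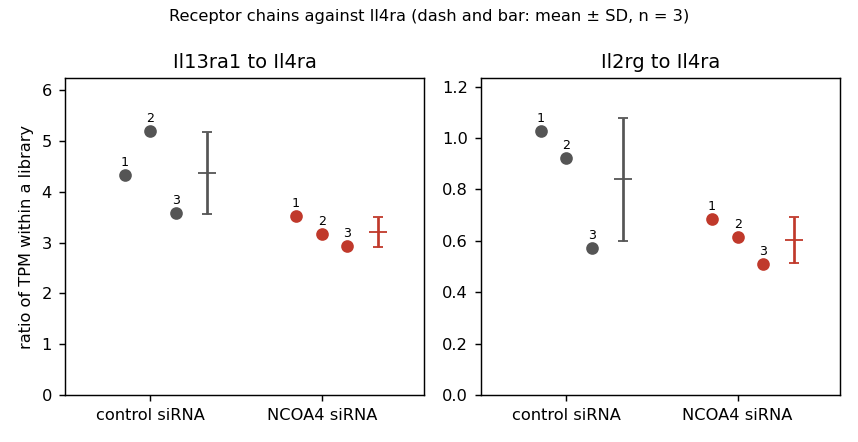
Ratio of the TPM of Il13ra1 (left) or Il2rg (right) to that of Il4ra within each library, on axes that start at 0, with control siRNA in grey and NCOA4 siRNA in red. Points are libraries numbered by replicate and the dash with a bar is the mean ± SD (n = 3). The ratio of Il13ra1 to Il4ra has means of 4.37 and 3.20 without overlap, and that of Il2rg to Il4ra overlaps between the groups.

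Stat6 (ENSMUSG00000002147, chromosome 10, 127642986 to 127660957, plus strand) encodes the factor that carries the signal to the nucleus. It was at 212, 222 and 216 TPM with control siRNA and at 206, 209.6 and 215 TPM with NCOA4 siRNA, from 4962 to 5923 reads per library. The groups overlapped, and the log2 difference was -0.05 with a standard error of 0.0369, the smallest standard error of the 9 genes. RNA level is not a measure of STAT6 phosphorylation, which was not part of these data. Stat6 shares 40 bases at one end with Nab2 on the other strand, whose log2 difference was -0.16 (adjusted p = 0.217, limma with Benjamini-Hochberg adjustment).

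Mrc1 (ENSMUSG00000026712, chromosome 2, 14229392 to 14332057, plus strand) encodes the mannose receptor, an endocytic lectin widely used as a marker of alternatively activated macrophages. Its level was 88.6, 97.0 and 89.8 TPM with control siRNA and 167, 168 and 165 TPM with NCOA4 siRNA, from 2982 to 3746 and from 5828 to 6351 reads. The NCOA4 siRNA libraries lay within 3 TPM of each other and far above the controls. The mean was 91.8 ± 4.56 TPM in the controls and 167 ± 1.40 TPM in the NCOA4 siRNA libraries (SD, n = 3 each), and the log2 difference was 0.86 with a standard error of 0.0449.

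The stretch before the Mrc1 start site (GRCm38.p6, plus strand, chr2:14229164-14229413) is shown because it holds 3 matches to GAGGAA, a core of binding sites of ETS factors such as the macrophage factor PU.1, all on the minus strand at positions -180, -167 and -35, besides 1 match to GGGCGG on the minus strand at -108.
Mrc1: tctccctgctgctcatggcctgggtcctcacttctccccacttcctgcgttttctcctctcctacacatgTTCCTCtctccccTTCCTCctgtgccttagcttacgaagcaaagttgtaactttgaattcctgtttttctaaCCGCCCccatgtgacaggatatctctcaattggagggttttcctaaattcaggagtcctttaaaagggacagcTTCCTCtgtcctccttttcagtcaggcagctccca
Capitals mark these matches. GAGGAA, searched on both strands, occurs in this stretch of 23.3% of all start sites. It occurs before 3 of the 8 start sites of the 7 genes searched (F13a1, Mrc1 and Stat6). This motif too was chosen after the values were seen, and nothing is read from the share.

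F13a1 (ENSMUSG00000039109, chromosome 13, 36867178 to 37050244, minus strand) encodes the A chain of coagulation factor XIII and Tgm2 (ENSMUSG00000037820, chromosome 2, 158116402 to 158146436, minus strand) encodes tissue transglutaminase. Both are transglutaminases, enzymes that crosslink proteins, and both are induced by IL4 in macrophages. F13a1 was at 3.98, 5.63 and 4.98 TPM with control siRNA and at 7.92, 8.93 and 8.04 TPM with NCOA4 siRNA, from 154, 230 and 175 reads and 310, 328 and 327 reads. The groups did not overlap, and control replicate 1 was the lowest library. Its log2 difference was 0.72 (standard error 0.129), from 0.60 without control replicate 1 to 0.83 without control replicate 2, and it missed the thresholds without control replicate 3, where it was 0.75, and without NCOA4 siRNA replicate 1, 2 or 3, where it was 0.75, 0.67 and 0.74.

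Tgm2 was at 5.22, 5.41 and 4.75 TPM in the control libraries and at 14.7, 14.1 and 13.2 TPM in the NCOA4 siRNA libraries, from 138, 151 and 114 reads and 394, 354 and 367 reads. The groups were far apart relative to the spread within them. The log2 difference was 1.37 (standard error 0.0800). The ratio of Tgm2 to F13a1 within a library was 1.31, 0.960 and 0.953 with control siRNA and 1.86, 1.58 and 1.64 with NCOA4 siRNA, without overlap. Tgm2 shares 52.9% of its span with Rprd1b on the other strand, which was at a mean of 28.0 TPM with a log2 difference of 0.12 (adjusted p = 0.275, limma with Benjamini-Hochberg adjustment). Of the 7 other genes listed as transglutaminase relatives, 4 had no read in any library and only Tgm1 was tested, at 1.81 ± 0.217 and 2.70 ± 0.693 TPM (SD, n = 3 each, adjusted p = 0.248, limma with Benjamini-Hochberg adjustment).

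Tgfbi (ENSMUSG00000035493, chromosome 13, 56609523 to 56639562, plus strand) encodes a secreted matrix protein with FAS1 domains that binds integrins. Its level was 3.93, 4.55 and 4.63 TPM with control siRNA and 16.4, 14.7 and 15.8 TPM with NCOA4 siRNA, from 85, 104 and 91 reads and 360, 303 and 360 reads. It was the lowest of the 9 genes in the control libraries and had the largest difference, 1.73 on the log2 scale (standard error 0.0872), which placed it 30th from the top among the 13829 tested genes. Tgm2 was at place 70, Mrc1 at 260, F13a1 at 368 and Il4ra at 380. The other genes with FAS1 domains on the list were Stab1, at 102 ± 6.24 and 117 ± 0.835 TPM (SD, n = 3 each, adjusted p = 0.0755, limma with Benjamini-Hochberg adjustment), and Postn and Stab2, which had a mean under 0.5 TPM.

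The bases before the Tgfbi start site (GRCm38.p6, plus strand, chr13:56609336-56609585) are shown because this gene had the largest difference. They hold 1 match to GGGCGG at position -124, in capitals, and no GAGGAA on either strand.
Tgfbi: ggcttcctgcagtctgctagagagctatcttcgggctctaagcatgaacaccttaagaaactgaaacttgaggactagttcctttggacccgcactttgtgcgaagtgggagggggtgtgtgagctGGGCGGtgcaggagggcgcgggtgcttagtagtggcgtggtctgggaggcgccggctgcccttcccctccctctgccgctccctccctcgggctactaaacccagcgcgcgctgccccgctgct

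Arg1 (ENSMUSG00000019987, chromosome 10, 24915221 to 24927484, minus strand) encodes arginase 1, which splits arginine into ornithine and urea and is a classical STAT6 target in mouse macrophages. Its level was 271, 342 and 305 TPM with control siRNA and 359.8, 339.7 and 317 TPM with NCOA4 siRNA, from 3463 to 4656 reads per library. The groups overlapped, since control replicate 2 was above NCOA4 siRNA replicates 2 and 3, and the log2 difference was 0.15 with a standard error of 0.0900. At this depth counting alone gives a coefficient of variation of 1.61% in the control libraries, and the observed one was 11.7%.

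The order of the levels was the same in both groups for the 4 most abundant genes, which were Arg1, Stat6, Mrc1 and Il13ra1. With control siRNA these were higher than 96.7%, 95.1%, 87.0% and 72.4% of all tested genes, and their ranges over the libraries did not overlap. Below them followed Il4ra, Il2rg, Tgm2, F13a1 and Tgfbi, higher than 38.2%, 34.9%, 28.2%, 27.6% and 26.0% of tested genes. Of these, Il4ra and Il2rg overlapped in range, as did Tgm2 with F13a1 and F13a1 with Tgfbi. With NCOA4 siRNA the lower part of the order was Il4ra, Tgfbi, Tgm2, Il2rg and F13a1. The ranges of Il4ra and Tgfbi and those of Il2rg and F13a1 overlapped, while the lowest Tgfbi library, at 14.75 TPM, was just above the highest Tgm2 library, at 14.72 TPM.

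To place the 9 genes in the rest of the pathway, 91 other genes were listed from general knowledge, with earlier results of these libraries known for some of them, such as Ccl24, Clec7a and Cd86. Of these genes 54 were tested, 37 had a mean under 0.5 TPM and 20 of those had no read in any library. With NCOA4 siRNA 7 of the 54 rose and 2 fell at the threshold of 0.05 on the adjusted p (limma, Benjamini-Hochberg adjustment over all tested genes), or 16.7% against 5.42% of all tested genes, and 22 had an unadjusted p under 0.05, which 21.6% of all tested genes had. Among them 4 rose and 1 fell by more than 1.5-fold, or 9.26% against 1.18% of all tested genes. Nothing is read from these shares either, since Ccl24, Clec7a and Cd86 are 3 of the 5 genes past both thresholds and their results were known when the list was made. The median log2 difference of the 54 genes was 0.04, close to that of all tested genes (0.03).

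**Figure D4:**
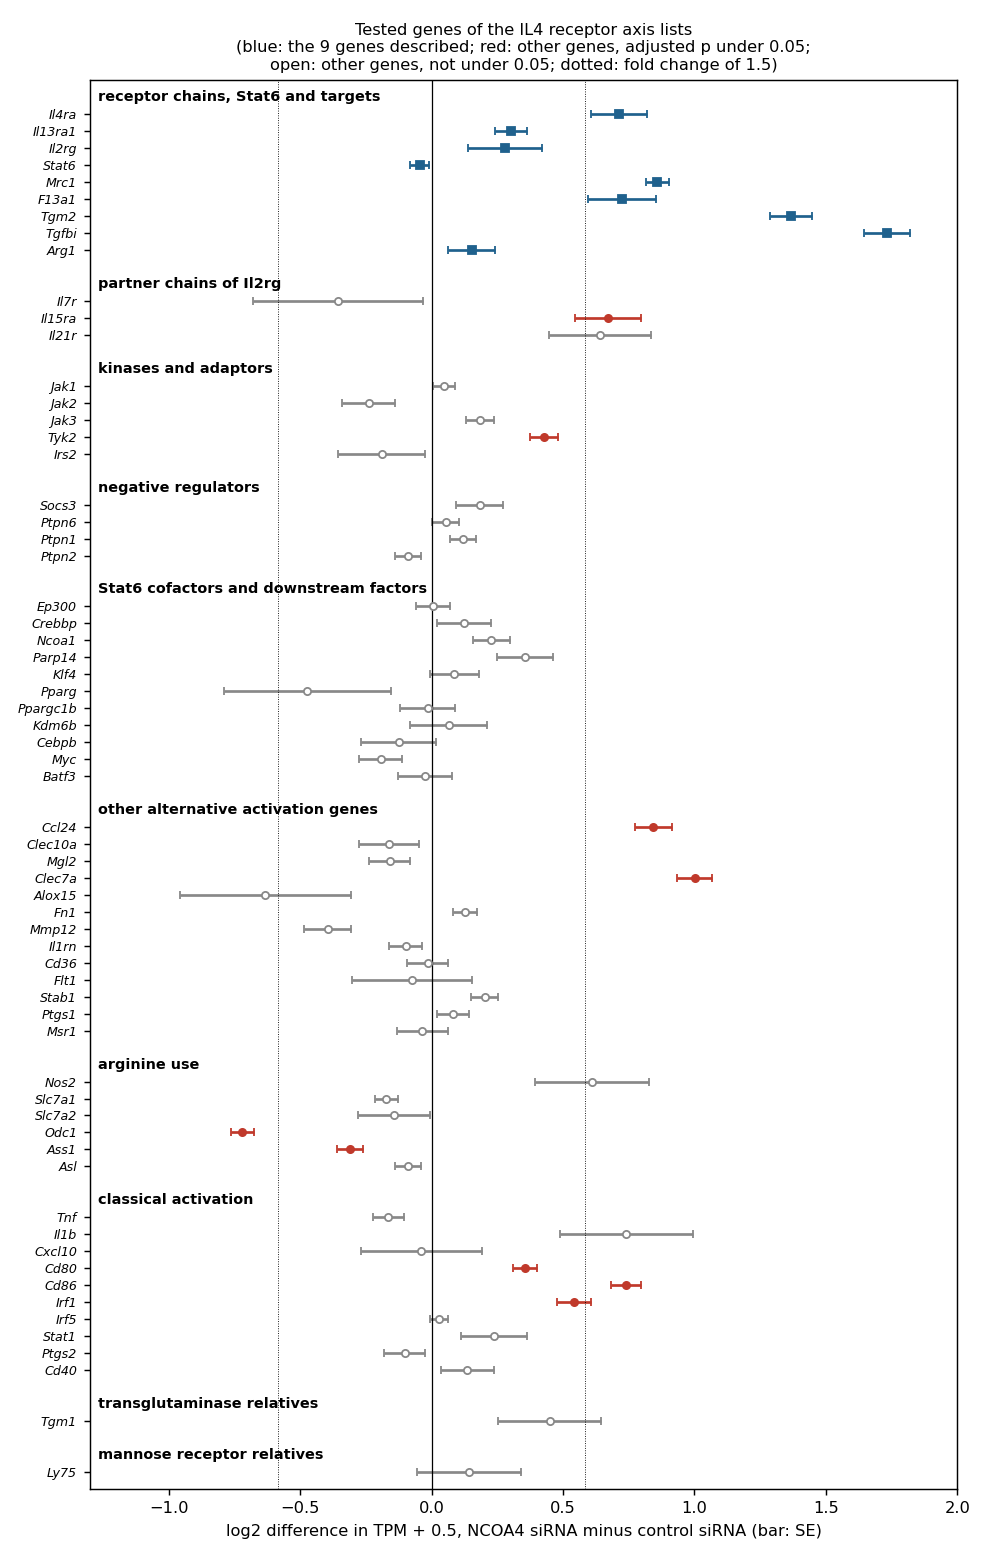
Log2 difference in TPM + 0.5 between NCOA4 siRNA and control siRNA for every tested gene of the lists, grouped by role and drawn once where it is on 2 lists, with the standard error as a bar. Blue squares are the 9 genes described, red points are other genes with an adjusted p under 0.05, open points are genes that missed it, and dotted lines mark a fold change of 1.5. Most genes of signalling and of Stat6 cofactors lie near 0, while Tgfbi (1.73), Tgm2 (1.37) and Clec7a (1.00) lie farthest to the right and Odc1 (-0.72) farthest to the left.

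The ligands were not detected. Il4 and Il13 had no read in any library, and neither had Il13ra2, the decoy receptor for IL13. A count of 0 allows up to 3 reads, which for Il4 is at most 0.469 TPM, for Il13 0.478 TPM and for Il13ra2 0.252 TPM, counting error only. Of the chains that pair with Il2rg, Il2ra and Il2rb also had no read. Il15ra, which presents IL15, rose from 1.79 ± 0.153 to 3.14 ± 0.150 TPM (SD, n = 3 each, log2 difference 0.67, adjusted p = 0.0314, limma with Benjamini-Hochberg adjustment), a call that was lost without any 1 of the 6 libraries, with adjusted p-values from 0.0523 to 0.129. Il21r was at 0.977 ± 0.230 and 1.79 ± 0.195 TPM (adjusted p = 0.122) and Il7r at 0.640 ± 0.184 and 0.407 ± 0.247 TPM (adjusted p = 0.573, both n = 3 per group and limma with Benjamini-Hochberg adjustment).

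Tyk2 was the 1 of 5 tested kinases and adaptors to pass the adjusted threshold, which 5.42% of all tested genes passed. It encodes a kinase bound to Il13ra1, and it rose from 18.3 ± 0.497 to 24.8 ± 0.989 TPM (SD, n = 3 each, log2 difference 0.43, adjusted p = 0.00885, limma with Benjamini-Hochberg adjustment), with adjusted p-values of 0.0542 and 0.0521 without NCOA4 siRNA replicate 2 or 3. Jak1, the kinase of the Il4ra chain, was at 89.7 ± 3.74 and 92.6 ± 1.07 TPM (SD, n = 3 each), and Jak3, the kinase of the Il2rg chain, at 12.5 ± 0.331 and 14.3 ± 0.207 TPM, with log2 differences of 0.05 and 0.18 that missed the threshold. None of the 4 tested negative regulators passed the adjusted threshold, and 1 had an unadjusted p under 0.05 (limma), against 21.6% of all tested genes. The most abundant of them, the phosphatase Ptpn6, was at 520.0 ± 31.5 and 539 ± 12.6 TPM, and Ptpn1 and Ptpn2 had log2 differences of 0.12 and -0.09. Of the 11 tested cofactors of STAT6 and downstream factors, 0 passed, and 3 had an unadjusted p under 0.05 (limma), close to the same background. Myc was at 177 ± 21.5 and 154 ± 0.344 TPM, the acetyltransferase Ep300 at 39.7 ± 2.36 and 39.8 ± 2.27 TPM, and Cebpb at 38.7 ± 7.28 and 35.2 ± 4.38 TPM (SD, n = 3 each).

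The other alternative activation genes did not move together. Of 24 genes 13 were tested. Their means were higher for 5 and lower for 8, where 57.4% of all tested genes were higher, with a median log2 difference of -0.03. The adjusted threshold was passed by 2 of the 13, or 15.4%, against 5.42% of all tested genes. The results of both were known when the list was made. Clec7a, the β-glucan receptor Dectin-1, rose from 16.9 ± 1.13 to 34.3 ± 1.85 TPM and the eosinophil chemokine Ccl24 from 105 ± 7.57 to 189 ± 12.1 TPM (SD, n = 3 each), with log2 differences of 1.00 and 0.84 (adjusted p = 0.00135 and 0.00234, limma with Benjamini-Hochberg adjustment). The abundant lipid scavenger receptor Cd36 was at 440.4 ± 45.1 and 434.7 ± 18.1 TPM and the cyclooxygenase Ptgs1 at 148 ± 11.1 and 156 ± 5.40 TPM, both short of the threshold. Retnla, Chil3, Ccl17, Ch25h and Pdcd1lg2, which IL4 induces strongly in primary mouse macrophages, had no read in any library. A count of 0 allows at most 1.12 TPM for Ccl17 and 0.961 TPM for Retnla, which are short genes, counting error only. For Ch25h, Chil3 and Pdcd1lg2 the limits are 0.415, 0.353 and 0.293 TPM. The relative of Mrc1 that was tested, Ly75, was at 0.944 ± 0.125 and 1.09 ± 0.136 TPM (SD, n = 3 each, adjusted p = 0.724, limma with Benjamini-Hochberg adjustment).

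Around arginine, the mean was lower for 5 of 6 tested genes and higher for 1, where 57.4% of all tested genes were higher. At the adjusted threshold 2 of the 6 fell, or 33.3% against 5.42% of all tested genes (2.31% lower). Nothing is read from this share, since some results were known when the lists were made. Odc1, which turns the ornithine made by arginase into polyamines, fell from 602 ± 27.2 to 365 ± 4.73 TPM, and Ass1, which rebuilds arginine from citrulline, from 29.2 ± 0.227 to 23.5 ± 0.964 TPM (SD, n = 3 each). Their log2 differences were -0.72 and -0.31 (adjusted p = 0.00127 and 0.0194, limma with Benjamini-Hochberg adjustment), and the adjusted p of Ass1 was above 0.05 with control replicate 2 or 3 left out (0.0516 and 0.0620) and with NCOA4 siRNA replicate 1, 2 or 3 left out (0.0749, 0.0870 and 0.0853). The arginine transporter Slc7a1 had a log2 difference of -0.17 (adjusted p = 0.0750) and Asl of -0.09 (adjusted p = 0.345, limma with Benjamini-Hochberg adjustment). Nos2, the competing user of arginine in classical activation, was at 0.752 ± 0.108 and 1.43 ± 0.332 TPM (SD, n = 3 each, adjusted p = 0.170, limma with Benjamini-Hochberg adjustment).

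Genes of classical activation, the state induced by interferon γ and bacterial products, were listed for comparison, with the result of Cd86 already known. The mean was higher for 8 of 11 tested genes and lower for 3, where 57.4% of all tested genes were higher. At the adjusted threshold 0 of the 11 fell and 3 rose, or 27.3% against 5.42% of all tested genes (3.11% higher and 2.31% lower). These were the T cell costimulatory ligands Cd86 and Cd80 and the transcription factor Irf1, which had log2 differences of 0.74, 0.35 and 0.54 (adjusted p = 0.00216, 0.00965 and 0.00776, limma with Benjamini-Hochberg adjustment). Cd86 was at 19.9 ± 1.11 and 33.6 ± 0.687 TPM, Cd80 at 27.7 ± 0.847 and 35.5 ± 0.586 TPM and Irf1 at 15.1 ± 0.472 and 22.2 ± 1.47 TPM (SD, n = 3 each). The adjusted p of Cd80 was above 0.05 with NCOA4 siRNA replicate 1, 2 or 3 left out (0.0632, 0.0611 and 0.0552), and that of Irf1 with replicate 2 left out (0.0547). Irf5 and the cytokine Tnf, the other abundant genes of this list, had log2 differences of 0.03 and -0.16 that missed the threshold. The median log2 difference of the 11 genes was 0.24.

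Of 8 macrophage markers 3 rose, 1 fell and 4 (Lyz2, Cd68, Itgam and Spi1) missed the adjusted threshold, which 5.42% of all tested genes passed. The markers that passed were Adgre1 (F4/80) from 108 ± 15.99 to 164 ± 6.16 TPM, Csf1r from 341 ± 20.02 to 422 ± 8.17 TPM, Mertk from 28.0 ± 2.02 to 39.2 ± 0.737 TPM, and Cd14 from 1174 ± 68.8 to 975 ± 19.1 TPM (SD, n = 3 each, adjusted p = 0.0248, 0.0218, 0.00965 and 0.0361, limma with Benjamini-Hochberg adjustment). The summed level of the 8 markers was between 8539 and 8713 TPM with control siRNA and between 8812 and 8913 TPM with NCOA4 siRNA, most of it from Lyz2, which was between 4683 and 5067 TPM and between 5364 and 5466 TPM. The summed level of the 4 T cell markers was at most 0.106 TPM, and that of the 4 mast cell and basophil markers at most 0.328 TPM, so cells that are common sources of IL4 were not detectable by these genes. The part of the macrophage markers in the differences of the 9 genes was not tested.

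The genes whose levels followed Il4ra most closely over the 6 libraries, among 10029 others with a mean of at least 5 TPM, were Gm13408, Rab5c, Coro1b, Abhd4 and Pde1b, with Pearson correlations from 0.994 to 0.998 on the log2 scale. The 6 points are the same libraries for every gene and fall into the 2 groups, so these values are a description. Their log2 differences were 0.47, 0.18, 0.37, 0.26 and 0.42, smaller than that of Il4ra, and in each of them control replicate 3 was the highest of the control libraries.

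The letters of STAT6 sites were searched in the windows of 300 bases around RefSeq start sites (250 before and 50 after). STAT6 binds TTC and GAA with 4 bases of any kind between them, and other STAT factors prefer a gap of 3 bases. Both motifs are their own reverse complement, so the search covers both strands. Windows were found for 7 of the 9 genes (8 windows), and none held either motif, where 6.95% and 8.30% of all windows did. With 8 windows and shares this low, nothing is read from the absence. In the 88 windows of the other list genes the shares were 14.77% and 12.5%. Arg1 and Tgm2 had no entry. Among the other genes of the lists, 10 of the 69 with a window held the motif with 4 bases between, and 6 of them, chosen after their levels were seen, are printed with 10 bases on each side and the motif in capitals, because they are genes of alternative activation whose levels can be set beside the motif. In GRCm38.p6 they lie at chr8:94810289-94810318 (plus strand) for Ccl17, chr16:48842454-48842483 (plus strand) for Retnla, chr19:29410827-29410856 (plus strand) for Pdcd1lg2. The others lie at chr5:17835857-17835886 (minus strand) for Cd36, chr2:24345160-24345189 (plus strand) for Il1rn, chr6:129472891-129472920 (minus strand) for Clec7a, and that of Cd36 is 20 bases after the start site.
Ccl17: cgagtgaccaTTCTCTGGAAagccacaaac
Retnla: agaatcataaTTCACAAGAAattgctaaac
Pdcd1lg2: catgctccagTTCCTCAGAAaccattctgg
Cd36: gtgatgggtcTTCACCAGAAatagaccctt
Il1rn: tgtgctcttcTTCCCAGGAAcaccatgaag
Clec7a: catttcagttTTCTTCAGAAgttacagcct
Of these genes Ccl17, Retnla and Pdcd1lg2 had no read in any library, Cd36 and Il1rn had log2 differences of -0.01 and -0.10 that missed the threshold, and Clec7a rose. The match is a description of the letters in these windows.

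Over 16 alternatives the log2 difference of Tgfbi was between 1.64 and 1.85, that of Tgm2 between 1.29 and 1.45 and that of Mrc1 between 0.80 and 0.90, and all 3 passed the thresholds in each alternative. Il4ra passed in 13 and F13a1 in 9 of the 16. Il13ra1 passed the threshold on the adjusted p alone in 8 of the 16. The small differences varied more relative to their size, with Stat6 between -0.10 and -0.03, Arg1 between 0.07 and 0.24, and Il2rg between 0.15 and 0.40.

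**Figure D5:**
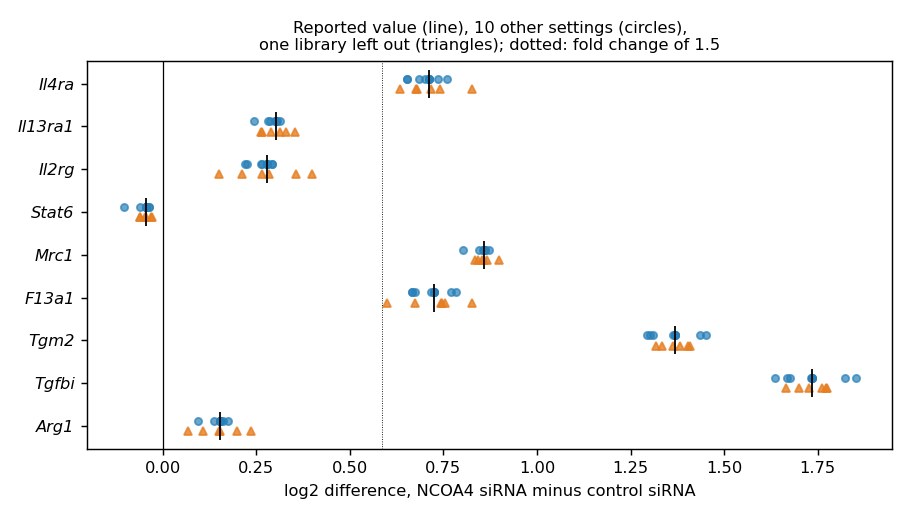
Log2 difference between NCOA4 siRNA and control siRNA for each of the 9 genes, as reported (black line), under 10 other settings (blue circles) and with 1 library left out (orange triangles). The dotted line marks a fold change of 1.5. Tgfbi, Tgm2, Mrc1, F13a1 and Il4ra stay to the right of the dotted line, and the other genes stay to its left.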

How the data were processed

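Per the labels, poly(A) RNA of 6 J774 cultures was sequenced from stranded libraries, with 3 biological replicates of each siRNA. The submitters' processing notes name Trimmomatic 0.33, HISAT2 2.1.0, featureCounts and build mm10. The strand setting of the counting is not given in the sources used here. The authors deposited TPM per library for 55487 genes, of which 55227 were named from GENCODE M21.

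Genes with a mean of at least 0.5 TPM were fitted with limma 3.58.1 (R 4.3.3) on log2(TPM + 0.5) by lmFit and eBayes with a trend, with Benjamini-Hochberg adjustment of the p-values over all tested genes. Differences on this scale understate the change of low genes. A gene was called where its adjusted p was under 0.05 and it differed by more than 1.5-fold. Read numbers were recovered by dividing out gene length (98.6% of genes were whole within 0.01 reads in every library at GENCODE length), for depth and for limma-voom. The study's edgeR test was not run here. The fit was tested on simulated data with the same spread in every library and none standing apart, as control replicate 1 did here. The 16 alternatives changed the pseudocount (1 or 0.1), the filter (none, or a mean of at least 5 TPM), the scaling (median centring, quantile normalization, mitochondrial genes removed) or the model (eBayes without trend, limma-voom on rebuilt reads, the replicate number as a block), or left out each library in turn.

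The 9 genes, the lists and the tests were chosen with earlier results of these data known. Named were the 9 genes, Ncoa4, list genes with an adjusted p under 0.05, the 3 most abundant of each list, the ligands, the markers that passed, and the 5 genes most like Il4ra. Any others, and the motifs GAGGAA and GGGCGG, were chosen after the values were seen.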

Additional observations from a re-analysis of the deposited data

How the results depend on the processing

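The log2 differences of the 9 genes kept their sign under all 16 alternatives, and 140 of 144 values moved by less than the spread between replicates. Both changes of the filter, eBayes without trend and the replicate block cannot change a log2 difference. The values under these settings equal the reported ones by design and do not speak for stability. Of the 9 genes 3 to 5 were called with 1 library left out, with 3 without NCOA4 siRNA replicate 1, 2 or 3 and 4 or 5 without a control library. The call count over all genes, 163 (119 higher and 44 lower), was then 77 to 172 (54 to 120 higher and 23 to 52 lower), and list genes with an adjusted p under 0.05, 9 in the reported fit, numbered 4 to 9, and 15 with limma-voom on rebuilt reads. Median centring gave 68 lower genes, so that 60.7% of calls were higher in place of 73.0%, quantile normalization gave 61.9%, and a mean of at least 5 TPM left 29 lower genes. The replicate numbers did not pair the libraries (correlations of deviations of 0.03, -0.02 and 0.02 for equal numbers), and not every library correlated best with its own number. With the replicate number as a block, 87 genes were called (61 higher and 26 lower), and 4 list genes had an adjusted p under 0.05. F13a1 was the call lost among the 9 genes. The cause of these changes was not tested. The median difference of the 9 genes was between 0.60 and 0.76 over the alternatives. Genes with few reads, such as Tgfbi, Il2rg and Tgm2 with control siRNA, have the largest counting error.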

Other observations

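Some genes of the lists had groups that did not overlap without passing the adjusted threshold. Mmp12, a macrophage elastase, was at 19.0, 20.7 and 18.4 TPM with control siRNA and at 16.5, 13.8 and 13.6 TPM with NCOA4 siRNA (log2 difference -0.39, adjusted p = 0.0554, limma with Benjamini-Hochberg adjustment). Il1b was at 1.92, 2.94 and 3.02 TPM with control siRNA and at 5.60, 5.68 and 3.13 TPM with NCOA4 siRNA (log2 difference 0.74, adjusted p = 0.155, limma with Benjamini-Hochberg adjustment). Of the 54 tested genes of the lists, 26 had groups that did not overlap (17 higher and 9 lower). Among all tested genes 28.4% did so (16.6% higher and 11.8% lower). Nothing is read from this count, since some results were known when the lists were made.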
